A study of Mus musculus with 14 samples.

Results

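The genes described here are 44 mouse genes that build the DNA replication machinery, out of 24421 genes counted. They were chosen by function, as the genes that license replication origins, start the forks and copy the DNA. Earlier results of these data were known when they were chosen. They were followed in bulk RNA-seq of mouse gastric tumours grown from transplants, in 4 groups of 3 libraries: orthotopic TMPC, subcutaneous TMPC, subcutaneous TMP and subcutaneous TM. What TM, TMP and TMPC stand for is not written in the labels, nor are the strain, sex and age of the hosts, and the 3 serve as names here. Tumours were taken 2 months after transplantation, with about 1 cm3 of tissue per sample and 150 bp paired reads of polyA RNA. The labels do not tie the replicates to different animals, so the spread behind each p-value is that of the libraries and may be technical.

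A chromosome may be copied only once per cell cycle, and the cell enforces this by splitting the work into steps. In G1 the origin recognition complex, Cdc6 and Cdt1 load the ring-shaped MCM helicase on DNA, which is called licensing. At the start of S phase the kinase Cdc7 with its partner Dbf4, together with cyclin-dependent kinases, turns each loaded ring into an active helicase with Cdc45 and the GINS complex. Polymerases, the sliding clamp and its loader then follow at the fork. Many of these genes are known targets of E2F transcription factors and are used as markers of cycling cells. In a bulk sample, fewer cycling cells and less replication RNA per cell cannot be told apart.

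All 44 genes had counts in every library and entered every test. Levels are in CPM, that is, counts after each library was brought to the same total, and TMM factors corrected that total for the library's composition. Total counts ran from 16584781 to 21107310 per library. Subcutaneous TM replicate 2 stood apart: its summed epithelial markers were 231 CPM, against 3847 and 4161 CPM in the other TM libraries, and its summed B and plasma cell markers were 2764 CPM, against 13 and 14 CPM. That library also had 0 CPM of Ddx3y, Eif2s3y, Kdm5d and Uty on the Y chromosome, which were above 0 in the other 11 libraries, while Xist was at 1435 CPM there, at 298 and 189 CPM in the other TM libraries and at no more than 13.4 CPM in the TMPC and TMP libraries. Counts of called genes are therefore given without it as well, and the part of the TM group's other markers and of Xist in its replication levels was not tested. The 7 gastric gland markers summed to between 1776 and 3420 CPM in orthotopic TMPC and to no more than 10.8 CPM in any subcutaneous library, and liver markers summed to 7327 CPM in orthotopic TMPC replicate 3, against 45.6 and 42.2 CPM in the other orthotopic libraries.

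The replication genes were high in subcutaneous TMPC and TMP tumours and low in orthotopic TMPC and subcutaneous TM tumours. Their summed level was 1252, 1594 and 1839 CPM in orthotopic TMPC, 4370, 4272 and 3752 CPM in subcutaneous TMPC, 3320, 3193 and 2961 CPM in TMP, and 1308, 1209 and 1323 CPM in TM. The 6 libraries of subcutaneous TMPC and TMP lay above the other 6 without overlap. For each of the 44 genes the mean of the subcutaneous groups was highest in TMPC, intermediate in TMP and lowest in TM, and for each the mean in orthotopic TMPC was below that in TMP.

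**Figure D1:**
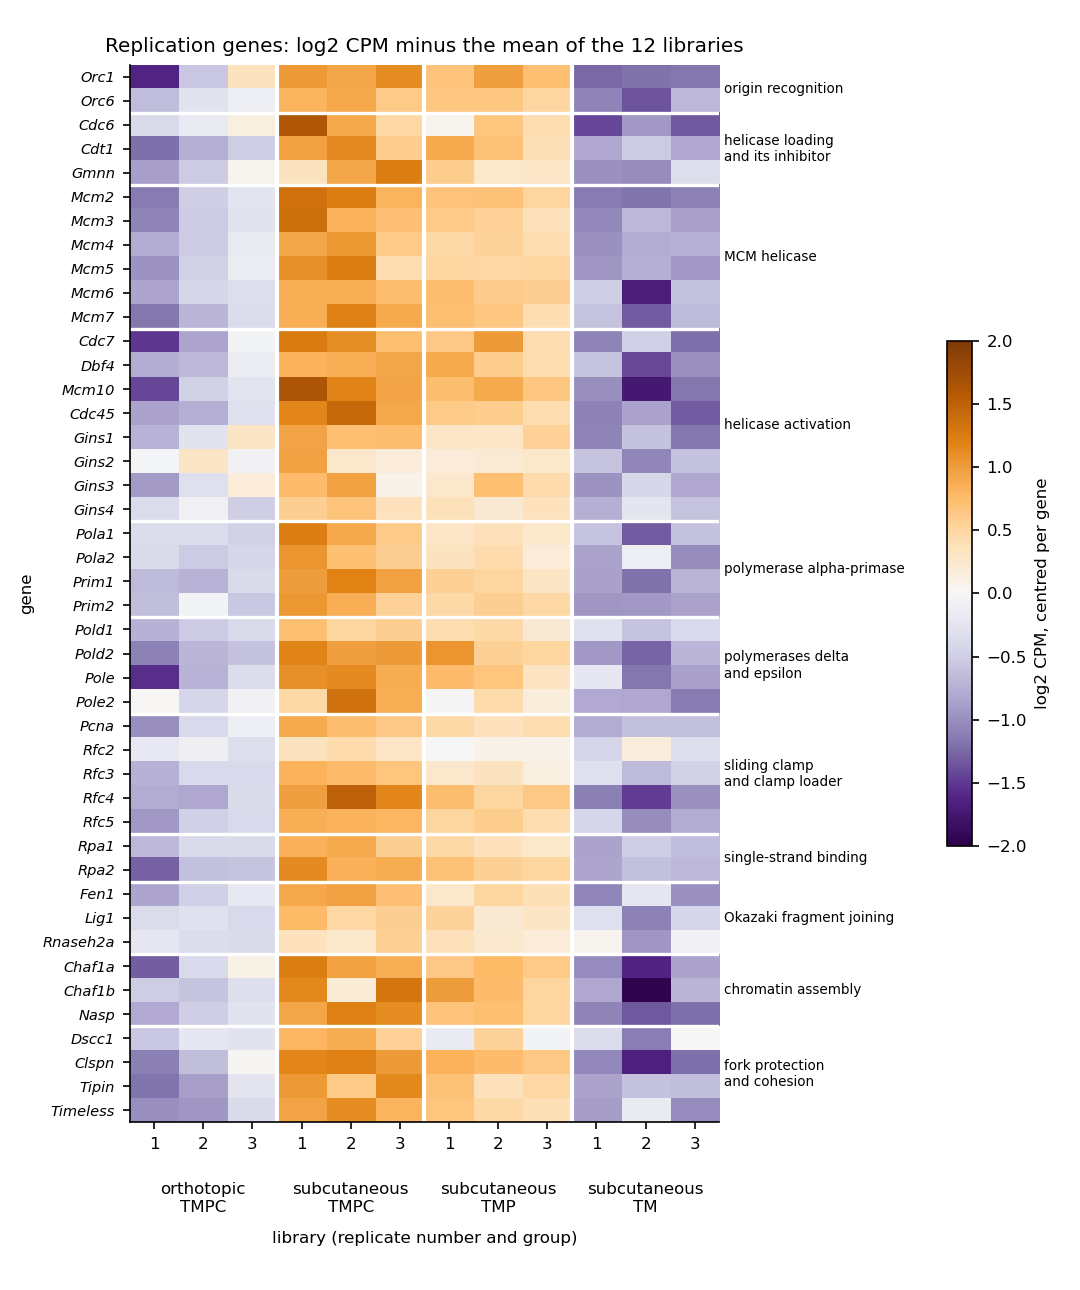
Levels of the 44 genes, ordered by role, in the 12 libraries, as log2 CPM minus the gene's mean over the libraries, with one column per library. Most cells are orange (above the mean) in the subcutaneous TMPC and TMP columns and purple (below it) in the orthotopic TMPC and subcutaneous TM columns, and Rfc2 and Rnaseh2a show the palest rows.

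In TMP against TM, 41 of the 44 genes rose and 0 fell at an adjusted p under 0.05 (edgeR's quasi-likelihood test, Benjamini-Hochberg adjustment over all 15277 genes tested). Of all genes tested 27.7% were called in this comparison, and 14.3% were called as higher. The median log2 fold change of the 44 was 1.25, against -0.07 over all genes tested. The lowest TMP library lay above the highest TM library for 42 of them, which held for 28.2% of all genes. Without TM replicate 2 the count was again 41, with a median of 1.33, when 31.2% of all genes were called.

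In TMPC against TM, 41 of 44 rose and 0 fell, where 35.8% of all genes were called and 18.0% as higher. The median was 1.66, against -0.07 over all genes, and the groups did not overlap for any of the 44, against 25.9% of all genes being higher without overlap. Without TM replicate 2 the count was 42, when 40.8% of all genes were called. This comparison shares its TM libraries with TMP against TM and is no independent test of it.

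In orthotopic against subcutaneous TMPC, 39 of 44 fell and 0 rose, where 27.8% of all 15123 genes tested were called and 13.8% as lower. The median log2 fold change was -1.30, against 0.05 over all genes. The highest orthotopic library lay below the lowest subcutaneous one for 42 of the 44, which held for 26.5% of all genes. The number of calls depended on which library was left out: without orthotopic TMPC replicate 2 it was 9 of 44, when 2.51% of all genes were called, while the median stayed at -1.30. The 9 were Mcm6, Prim1, Pold2, Rfc4, Rfc5, Rpa1, Rpa2, Nasp and Timeless. Without orthotopic TMPC replicate 3, the library with liver markers, the count was 39 and the median -1.46, when 30.6% of all genes were called.

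**Figure D2:**
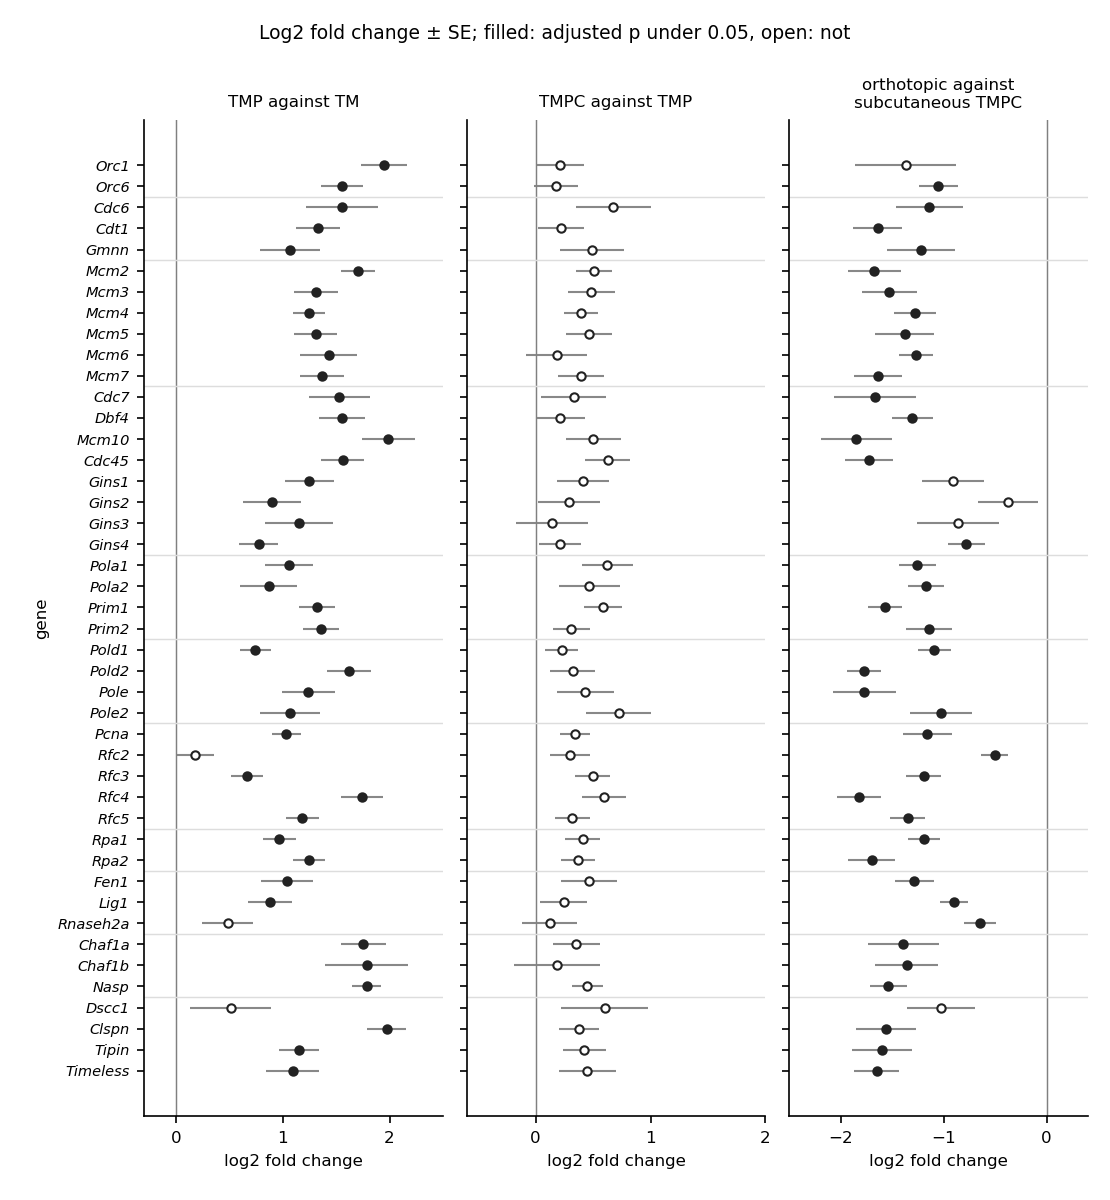
Log2 fold change of each gene, on the x axis, with its standard error as a bar, in TMP against TM, TMPC against TMP and orthotopic against subcutaneous TMPC. Filled points passed an adjusted p of 0.05: 41 genes on the left, 0 in the middle and 39 on the right, and all points of a panel lie on 1 side of the zero line.

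Of the origin recognition complex, Orc1, the subunit whose level swings most through the cell cycle in human cells, and Orc6 were members. Orc1 had 2.98, 6.24 and 11.5 CPM in orthotopic TMPC, 18.5, 17.4 and 19.8 CPM in subcutaneous TMPC, 14.7, 18.0 and 15.1 CPM in TMP, and 3.80, 4.00 and 4.06 CPM in TM. Its subcutaneous libraries were tight within each group, while the orthotopic ones spread over a range that took in the TM values at its low end. The log2 fold change was 1.95 ± 0.22 (SE) in TMP against TM, with an adjusted p of 0.00195, and 2.17 ± 0.22 in TMPC against TM, with an adjusted p of 7.12e-04. In orthotopic against subcutaneous TMPC it was -1.37 ± 0.49 and did not pass (adjusted p = 0.0768), although the groups did not overlap and DESeq2 called it (adjusted p = 0.0222). Orc6 rose by 1.56 ± 0.20 in TMP against TM and fell by 1.05 ± 0.19 in orthotopic against subcutaneous TMPC (adjusted p = 0.0141).

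Cdc6 and Cdt1 bring the helicase to the origin, and Gmnn (geminin) blocks Cdt1 after S phase has begun. All 3 rose in TMP against TM and fell in orthotopic against subcutaneous TMPC. Cdc6 had 13.3, 15.3 and 19.0 CPM in orthotopic TMPC, 53.2, 32.7 and 24.2 CPM in subcutaneous TMPC, 17.8, 27.4 and 23.3 CPM in TMP, and 6.46, 9.11 and 6.86 CPM in TM. Its subcutaneous TMPC libraries had a coefficient of variation of 40.6%, the widest of the 44 genes in that group, and reached into the TMP range. The log2 fold change of Cdc6 was 1.55 ± 0.34 in TMP against TM (adjusted p = 0.0148) and 2.23 ± 0.34 in TMPC against TM (adjusted p = 0.00293).

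Of the 3, Cdt1 differed most between the sites. It had 20.0, 27.4 and 32.6 CPM in orthotopic TMPC, against 90.4, 101 and 69.4 CPM in subcutaneous TMPC, a log2 fold change of -1.64 ± 0.24 (adjusted p = 0.0103). In TMP it had 86.7, 75.3 and 60.4 CPM, against 26.3, 32.3 and 26.3 CPM in TM. The ratio of the loader Cdt1 to its inhibitor Gmnn, in counts, averaged 1.40 ± 0.16 in orthotopic TMPC, 2.00 ± 0.83 in subcutaneous TMPC, 2.20 ± 0.26 in TMP and 1.94 ± 0.62 in TM (SD, n = 3 each). The ranges of these ratios overlapped between subcutaneous TMPC and each other group, and TM overlapped every other group as well. The orthotopic TMPC ratios (1.44, 1.53 and 1.22) lay below those of TMP (2.25, 2.44 and 1.93). Those groups differ in both name and site, and the difference was not tested.

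Mcm2 to Mcm7 encode the 6 subunits of the helicase ring, which are needed in equal number in the complex. All 6 rose in TMP against TM, with log2 fold changes between 1.25 (Mcm4) and 1.71 (Mcm2), and all 6 fell in orthotopic against subcutaneous TMPC, between -1.27 (Mcm6) and -1.67 (Mcm2). Mcm2 had 44.3, 69.4 and 81.5 CPM in orthotopic TMPC, 248, 230 and 172 CPM in subcutaneous TMPC, 156, 159 and 139 CPM in TMP, and 44.4, 43.3 and 46.2 CPM in TM. Its TM libraries were the tightest of the 44 genes in that group, at a coefficient of variation of 3.33%, and lay below every library of subcutaneous TMPC and TMP. Mcm2 rose by 1.71 ± 0.16 in TMP against TM (adjusted p = 0.00140) and by 2.22 ± 0.16 in TMPC against TM (adjusted p = 5.37e-04), and its fall in orthotopic TMPC had an adjusted p of 0.0110.

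Per kilobase of transcript, the scale on which genes can be compared with each other, the 6 subunits stayed within a factor of 1.51 to 2.82 of each other in each library. Mcm6 was the highest in 10 of the 12 libraries, with Mcm7 in subcutaneous TMPC replicate 2 and Mcm3 in TM replicate 2 as the exceptions. Mcm6 averaged 36.9 ± 6.4 CPM per kilobase in orthotopic TMPC, 93.1 ± 4.2 in subcutaneous TMPC, 81.7 ± 5.2 in TMP and 29.3 ± 11.2 in TM (SD, n = 3 each). The wide spread in TM came with replicate 2, where Mcm6 had 47.9 CPM, against 107 and 101 CPM in the other TM libraries. In TMP the 3 libraries of Mcm5 had 120, 119 and 120 CPM, a coefficient of variation of 0.202%, the smallest of any member in any group.

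**Figure D3:**
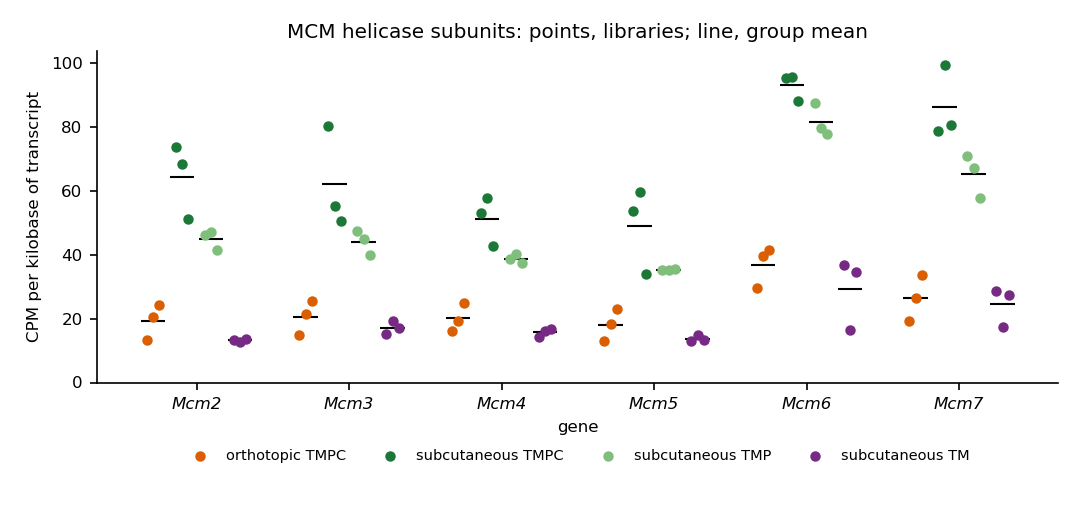
Levels of the 6 MCM subunits in CPM per kilobase of transcript, one point per library and a line at each group mean. Subcutaneous TMPC and TMP lie above orthotopic TMPC and subcutaneous TM for each subunit, and Mcm6 has the highest means in all 4 groups.

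Because E2F factors are known regulators of replication genes, the promoters of the members were searched for E2F words. RefSeq promoter windows, 250 bases before to 50 bases after the gene start on GRCm38.p6, were at hand for 34 of the 44 genes. The words TTTCCCGC, TTTGGCGC, TTTCGCGC and TTTGCCGC, on either strand and with overlaps counted, stood in the windows of 14 of the 34 (41.2%), against 4.29% of the 11467 genes tested in TMP against TM that had a window and 2.6% of all 27025 genes with a window. CCAAT, on either strand, stood in 61.8% of the 34, against 42.1% of the tested genes. The members' windows also held more G and C, with a median of 59.2%, against 52.7% over all windows, and its part in the E2F count was not tested. The share for the word CACGTG (E-box) was 14.7%, against 11.2% of the tested genes, and for TTTGAA or TTCGAA (the CHR element of cell cycle genes) it was 29.4%, against 16.4%.

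In 8 members (Orc1, Cdc6, Mcm5, Mcm6, Mcm7, Gins3, Pola1 and Rfc3) a word lay wholly before the RefSeq start. In the GENCODE annotation that gives the gene bounds elsewhere, the gene begins further upstream for Orc1, Cdc6, Mcm7, Gins3 and Rfc3, and the word of these 5 lies inside the gene, while in Mcm5, Mcm6 and Pola1 it lies before it. The 170 bases before the RefSeq start are shown for 6 of them, 5′ to 3′ on the gene's strand with E2F words in capitals, because they cover the origin complex, the loader, the helicase and the first polymerase.
Orc1 (chr4:108579284-108579453, + strand): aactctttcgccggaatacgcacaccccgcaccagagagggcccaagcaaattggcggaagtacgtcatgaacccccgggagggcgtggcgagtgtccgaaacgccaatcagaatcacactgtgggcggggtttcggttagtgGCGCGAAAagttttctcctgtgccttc
Cdc6 (chr11:98907981-98908150, + strand): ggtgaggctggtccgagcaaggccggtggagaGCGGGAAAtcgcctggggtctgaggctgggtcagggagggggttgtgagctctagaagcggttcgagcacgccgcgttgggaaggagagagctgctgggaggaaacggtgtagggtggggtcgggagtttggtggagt
Mcm5 (chr8:75109339-75109508, + strand): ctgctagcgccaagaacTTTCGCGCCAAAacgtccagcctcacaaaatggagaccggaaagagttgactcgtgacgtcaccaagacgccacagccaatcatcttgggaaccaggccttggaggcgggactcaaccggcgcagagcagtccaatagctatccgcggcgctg
Mcm6 (chr1:128359706-128359875, - strand): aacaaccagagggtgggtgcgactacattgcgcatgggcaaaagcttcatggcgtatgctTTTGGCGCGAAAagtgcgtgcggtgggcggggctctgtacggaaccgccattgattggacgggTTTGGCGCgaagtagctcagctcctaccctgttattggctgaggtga
Mcm7 (chr5:138171884-138172053, - strand): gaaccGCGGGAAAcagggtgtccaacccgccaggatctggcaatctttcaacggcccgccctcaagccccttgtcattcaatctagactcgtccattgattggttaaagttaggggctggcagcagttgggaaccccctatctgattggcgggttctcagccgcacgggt
Pola1 (chrX:93632156-93632325, - strand): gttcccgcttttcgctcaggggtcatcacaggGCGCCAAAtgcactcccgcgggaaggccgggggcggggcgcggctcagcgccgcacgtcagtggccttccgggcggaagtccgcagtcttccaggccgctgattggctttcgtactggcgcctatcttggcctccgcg

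The 3 words of Mcm6 begin 110, 106 and 47 bases before the RefSeq start, and the first and second overlap, as do those of Mcm5. These matches are letters in a window and not shown binding sites. The 14 genes with a word and the 20 genes with a window and none had median log2 fold changes of 1.31 and 1.54 in TMP against TM, and of -1.26 and -1.46 in orthotopic against subcutaneous TMPC.

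The kinase Cdc7 with Dbf4 fires origins, Mcm10 is needed to open the helicase, and Cdc45 with the 4 GINS subunits completes it. All 8 of these genes rose in TMP against TM, and 5 fell in orthotopic against subcutaneous TMPC. Mcm10 had 9.96, 19.5 and 22.6 CPM in orthotopic TMPC, 83.1, 61.0 and 52.1 CPM in subcutaneous TMPC, 45.2, 50.4 and 42.2 CPM in TMP, and 13.5, 8.07 and 12 CPM in TM. Orthotopic TMPC and TM overlapped, and both lay below the lowest library of the other groups. Mcm10 had the largest change of the 44 in each called comparison: 1.99 ± 0.25 in TMP against TM (adjusted p = 0.00256), 2.49 ± 0.25 in TMPC against TM (adjusted p = 7.12e-04) and -1.85 ± 0.34 in orthotopic against subcutaneous TMPC (adjusted p = 0.0153).

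Cdc45 had 13.3, 14.3 and 19.9 CPM in orthotopic TMPC, 53.9, 65.3 and 45.6 CPM in subcutaneous TMPC, 37.0, 36.4 and 32.6 CPM in TMP, and 11.4, 13.4 and 9.70 CPM in TM. It is one of the genes whose subcutaneous groups stood in full order, with no overlap between TMPC, TMP and TM. Fold changes of the GINS subunits were smaller. Gins4 rose by 0.77 ± 0.18 and Gins2 by 0.90 ± 0.27 in TMP against TM, the smallest changes of the 8, and Gins1, Gins2 and Gins3 did not pass in orthotopic against subcutaneous TMPC, at -0.91 ± 0.30, -0.37 ± 0.29 and -0.86 ± 0.40 (adjusted p = 0.0630, 0.360 and 0.144). DESeq2 called Gins1 there (adjusted p = 0.0196). Gins2 had 12.9, 16.2 and 12.5 CPM in orthotopic TMPC, against 25.7, 15.8 and 15.0 CPM in subcutaneous TMPC, so that only subcutaneous replicate 1 stood out. It shares 2758 exon bases with Gse1 on the opposite strand, and since the use of strand in counting is not stated, reads of the pair cannot be told apart. Gse1 was between 59.3 and 74.3 CPM in orthotopic TMPC and between 69.5 and 130 CPM in subcutaneous TMPC.

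Pola1, Pola2, Prim1 and Prim2 form polymerase alpha-primase, which lays the RNA-DNA primers. All 4 rose in TMP against TM and fell in orthotopic against subcutaneous TMPC. Prim2, a primase subunit, had 41.7, 44.7 and 42.1 CPM in TMP, against 15.7, 15.8 and 16.8 CPM in TM, a log2 fold change of 1.35 ± 0.17 (adjusted p = 0.00250). The catalytic primase Prim1 had 21.8, 20.9 and 26.4 CPM in orthotopic TMPC, 68.6, 79.3 and 67.2 CPM in subcutaneous TMPC, 50.6, 49.2 and 42.7 CPM in TMP, and 18.9, 15.0 and 21.0 CPM in TM. Its subcutaneous groups did not overlap, and orthotopic TMPC overlapped TM. Prim1 rose by 1.91 ± 0.17 in TMPC against TM (adjusted p = 6.01e-04) and fell by 1.57 ± 0.16 in orthotopic against subcutaneous TMPC (adjusted p = 0.00756). Pola1, the polymerase subunit, had 39.3, 39.1 and 36.5 CPM in orthotopic TMPC, 117, 93.9 and 76.7 CPM in subcutaneous TMPC, 60.9, 64.4 and 60.3 CPM in TMP, and 33.2, 19.9 and 32.8 CPM in TM.

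Polymerase delta (Pold1, Pold2) mainly copies the lagging strand and polymerase epsilon (Pole, Pole2) the leading strand. The accessory subunit Pold2 had 27.8, 36.2 and 39.0 CPM in orthotopic TMPC, 133, 116 and 118 CPM in subcutaneous TMPC, 122, 86.8 and 83.4 CPM in TMP, and 31.0, 24.3 and 36.4 CPM in TM. Its 2 high groups lay far above its 2 low ones, at 1.62 ± 0.20 in TMP against TM (adjusted p = 0.00258), 1.94 ± 0.20 in TMPC against TM (adjusted p = 7.98e-04) and -1.77 ± 0.17 between the sites (adjusted p = 0.00755). The catalytic subunit Pold1 rose by 0.74 ± 0.14 in TMP against TM and fell by 1.09 ± 0.16 between the sites, both past the threshold. The ratio of Pold2 to Pold1 counts averaged 1.24 ± 0.07 in orthotopic TMPC, 1.99 ± 0.02 in subcutaneous TMPC, 1.86 ± 0.35 in TMP and 1.01 ± 0.16 in TM (SD, n = 3 each), with no overlap between high and low groups, a pair picked after its values were seen and so given without a test.

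Pole, the catalytic subunit of epsilon, had 11.7, 20.9 and 26.9 CPM in orthotopic TMPC, against 73.2, 75.5 and 63.8 CPM in subcutaneous TMPC. The groups were far apart, with a log2 fold change of -1.77 ± 0.31 (adjusted p = 0.0135). Pole2 had 17.3, 32.3 and 22.9 CPM in subcutaneous TMPC, against 12.4, 17.1 and 14.1 CPM in TMP.

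Pcna encodes the sliding clamp that holds the polymerase on DNA, and Rfc2 to Rfc5 encode small subunits of its loader. Pcna was the most abundant member per kilobase in all 4 groups, at 92.8 ± 26.9 CPM per kilobase in orthotopic TMPC, 217 ± 21 in subcutaneous TMPC, 170 ± 7 in TMP and 80.0 ± 5.3 in TM (SD, n = 3 each). It rose by 1.03 ± 0.13 in TMP against TM (adjusted p = 0.00280) and fell by 1.16 ± 0.24 in orthotopic against subcutaneous TMPC (adjusted p = 0.0185).

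Among the loader subunits Rfc4 had the largest fold changes and Rfc2 the smallest in TMP against TM, TMPC against TM and between the sites. Rfc4 had 15.2, 14.8 and 19.9 CPM in orthotopic TMPC, 51.5, 74.5 and 58.7 CPM in subcutaneous TMPC, 43.6, 37.2 and 40.4 CPM in TMP, and 12.1, 9.38 and 13.3 CPM in TM. All 4 groups of Rfc4 stood without overlap, and it rose by 1.74 ± 0.20 in TMP against TM (adjusted p = 0.00202) and by 2.34 ± 0.20 in TMPC against TM (adjusted p = 5.50e-04), and fell by 1.82 ± 0.22 between the sites (adjusted p = 0.00872). Rfc2 had 52.2, 55.7 and 47.3 CPM in orthotopic TMPC, 75.8, 81.6 and 73.2 CPM in subcutaneous TMPC, 59.4, 63.5 and 63.5 CPM in TMP, and 44.6, 66.2 and 47.7 CPM in TM. TM replicate 2 lay above all TMP libraries for this gene, and the log2 fold change of Rfc2 was 0.17 ± 0.18 in TMP against TM (adjusted p = 0.488) and 0.47 ± 0.18 in TMPC against TM (adjusted p = 0.0692).

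Between the sites Rfc2 fell by 0.50 ± 0.13 (adjusted p = 0.0352), the smallest change among the 39 calls. Rfc2 (chromosome 5, 134581366 to 134601805 on mm10) shares 952 exon bases with Lat2, a gene of leukocytes on the opposite strand, and their reads may be mixed. Lat2 was between 7.41 and 11.6 CPM in orthotopic TMPC, between 5.69 and 10.3 CPM in subcutaneous TMPC, between 4.63 and 10.5 CPM in TMP, and at 26.8, 46.0 and 24.3 CPM in TM, where replicate 2 was again the highest. The part of Lat2 reads in the Rfc2 counts was not tested. The ratio of Rfc4 to Rfc2 counts was 0.291, 0.266 and 0.421 in orthotopic TMPC, 0.680, 0.913 and 0.803 in subcutaneous TMPC, 0.735, 0.587 and 0.637 in TMP, and 0.272, 0.142 and 0.279 in TM. As with Pold2 and Pold1, the pair was picked after its values were seen and the high and low groups did not overlap.

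Rpa1 and Rpa2 coat single-stranded DNA at the fork. Rpa2 had 14.6, 23.1 and 23.6 CPM in orthotopic TMPC, 78.0, 64.4 and 65.9 CPM in subcutaneous TMPC, 57.5, 52.5 and 50.5 CPM in TMP, and 19.9, 23.1 and 22.2 CPM in TM. It is a gene with even levels inside the subcutaneous groups, and it rose by 1.24 ± 0.15 in TMP against TM (adjusted p = 0.00235) and by 1.61 ± 0.15 in TMPC against TM (adjusted p = 6.46e-04). Between the sites it fell by 1.70 ± 0.23 (adjusted p = 0.00920). Rpa1, the large subunit, rose by 0.97 ± 0.16 in TMP against TM and fell by 1.19 ± 0.15 between the sites, both past the threshold.

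Fen1 trims the primer flap of each Okazaki fragment, Lig1 seals the nick and Rnaseh2a is the catalytic subunit of an enzyme that cuts RNA in RNA-DNA hybrids. Fen1 had 28.4, 36.2 and 43.9 CPM in orthotopic TMPC, 95.7, 98.0 and 83.1 CPM in subcutaneous TMPC, 60.6, 72.1 and 67.0 CPM in TMP, and 24.2, 43.4 and 25.7 CPM in TM. It rose by 1.04 ± 0.24 in TMP against TM (adjusted p = 0.0189) and by 1.50 ± 0.25 in TMPC against TM (adjusted p = 0.00367), and fell by 1.29 ± 0.19 between the sites (adjusted p = 0.0105). Fen1 shares 1909 exon bases with Gm10143 on the opposite strand. Lig1 rose by 0.88 ± 0.21 and fell by 0.90 ± 0.14 in the same comparisons of TMP with TM and of the sites.

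Rnaseh2a was the member with the smallest change in TMPC against TMP and the second smallest, after Rfc2, in TMP against TM. It had 34.7, 31.7 and 30.9 CPM in orthotopic TMPC, 51.7, 48.7 and 59.4 CPM in subcutaneous TMPC, 52.3, 48.0 and 45.8 CPM in TMP, and 41.7, 21.0 and 38.4 CPM in TM. The low value was TM replicate 2, and its log2 fold change was 0.48 ± 0.24 in TMP against TM (adjusted p = 0.166) and 0.60 ± 0.24 in TMPC against TM (adjusted p = 0.0831), while between the sites it fell by 0.65 ± 0.16 (adjusted p = 0.0279). In all, 17 of the 44 genes share exon bases with another gene, 15 of them with one on the opposite strand.

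The chaperones that put histones on new DNA all rose in TMP against TM and fell between the sites. Chaf1a and Chaf1b are subunits of chromatin assembly factor 1, and Nasp escorts histones H3 and H1. Nasp had 61.6, 76.4 and 88.4 CPM in orthotopic TMPC, 204, 249 and 233 CPM in subcutaneous TMPC, 172, 178 and 150 CPM in TMP, and 50.8, 42.6 and 46.3 CPM in TM. The 4 groups of Nasp did not overlap. It rose by 1.79 ± 0.14 in TMP against TM (adjusted p = 0.00128) and by 2.23 ± 0.14 in TMPC against TM (adjusted p = 5.37e-04), and fell by 1.54 ± 0.18 between the sites (adjusted p = 0.00865).

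Chaf1a rose by 1.75 ± 0.21 and Chaf1b by 1.79 ± 0.39 in TMP against TM. Chaf1b spread widely in TM, with 6.97 CPM in replicate 2, against 15.3 and 16.5 CPM in the other TM libraries. It also spread in subcutaneous TMPC, at 52.6 ± 19.0 CPM (SD). Its standard error was wide in TMPC against TMP as well, at 0.38. In orthotopic against subcutaneous TMPC Chaf1a fell by 1.39 ± 0.35 and Chaf1b by 1.36 ± 0.31. Chaf1a shares 4648 exon bases with Ubxn6 on the opposite strand, and the part of Ubxn6 reads in its counts was not tested. Ubxn6 was between 51.7 and 64.2 CPM in orthotopic TMPC and between 57.9 and 68.0 CPM in subcutaneous TMPC.

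Clspn (claspin) links the fork to the checkpoint kinase Chk1, Timeless and Tipin form the fork protection complex, and Dscc1 belongs to the alternative clamp loader that helps join sister chromatids. Clspn had 14.2, 19.6 and 30.7 CPM in orthotopic TMPC, 68.0, 70.2 and 61.1 CPM in subcutaneous TMPC, 53.9, 51.4 and 47.1 CPM in TMP, and 14.7, 9.59 and 13.1 CPM in TM. It was second only to Mcm10 in TMP against TM, at 1.97 ± 0.18 (adjusted p = 0.00133), and rose by 2.35 ± 0.18 in TMPC against TM (adjusted p = 5.37e-04). Timeless had 17.9, 18.5 and 27.4 CPM in orthotopic TMPC, against 69.0, 77.6 and 63.3 CPM in subcutaneous TMPC, a log2 fold change of -1.65 ± 0.22 (adjusted p = 0.00919).

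Dscc1 was low in all groups, with 2.64, 3.35 and 3.22 CPM in orthotopic TMPC, 6.80, 7.18 and 5.64 CPM in subcutaneous TMPC, 3.49, 5.60 and 3.75 CPM in TMP, and 3.02, 1.79 and 3.88 CPM in TM. Its TMP and TM libraries overlapped. Its log2 fold changes had the direction of the other members but missed the threshold, at 0.51 ± 0.38 in TMP against TM (adjusted p = 0.337), 1.11 ± 0.38 in TMPC against TM (adjusted p = 0.0525) and -1.02 ± 0.33 between the sites (adjusted p = 0.0612). DESeq2 called Dscc1 in TMPC against TM and between the sites (adjusted p = 0.00844 and 0.00329).

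In TMPC against TMP, both subcutaneous, no member passed edgeR's test, nor did any of the 15277 genes tested, so that the share called was 0%. DESeq2 also called 0 of the 44 genes, with 17 calls among all genes. All 44 log2 fold changes were above 0, as were those of 7743 of all 15277 genes. They lay between 0.12 (Rnaseh2a) and 0.72 (Pole2), with a median of 0.39, against 0.01 over all genes. At an unadjusted p under 0.05, 14 members were higher and 0 lower, where 1.37% of all genes were higher by that rule. In either direction 465 of the 15277 genes passed it, a number that a comparison without any difference could also give. For 27 members the lowest TMPC library lay above the highest TMP library, as for 6.18% of all genes.

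The members with the largest values in each role showed the size of this difference. Pole2 was at 0.72 ± 0.28, Cdc6 at 0.68 ± 0.33, Cdc45 at 0.63 ± 0.20, Pola1 at 0.62 ± 0.22, Dscc1 at 0.60 ± 0.38 and Rfc4 at 0.60 ± 0.19. The others were Mcm2 at 0.51 ± 0.16, Fen1 at 0.46 ± 0.24, Nasp at 0.45 ± 0.13, Rpa1 at 0.41 ± 0.15 and Orc1 at 0.21 ± 0.21. Each had an adjusted p of 1.00, and an adjusted p of that size does not show that the groups were alike.

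Orthotopic TMPC and subcutaneous TM, the groups with the low levels, were also set side by side. The mean was higher in orthotopic TMPC than in TM for 35 of the 44 genes, as for 47.7% of all genes. The ranges of both groups overlapped for 35 of the 44, near the 75.2% of all genes. For the other 9 (Orc6, Cdc6, Gins2, Pola1, Prim2, Pole2, Rfc4, Chaf1b and Nasp) every orthotopic library lay above every TM library, where 12.5% of all genes were higher without overlap, and 0 members were lower without overlap, where 12.2% of all genes were. The groups differ in both name and site, so no fold change was tested.

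The members varied more among the orthotopic libraries than among the other TMPC tumours. The median coefficient of variation of the 44 genes was 21.4% in orthotopic TMPC, 12.1% in subcutaneous TMPC, 8.56% in TMP and 20.1% in TM, against 18.0%, 19.7%, 13.8% and 25.1% in the same groups over 12416 genes with a mean of at least 5 CPM. The orthotopic spread ran in 1 direction for most genes: replicate 1 was the lowest for 33 members and replicate 3 the highest for 33. Orc1 spread most there, with a coefficient of variation of 62.1%, and Lig1 least, with 4.07%. In TM, by contrast, replicate 2 was the lowest for 23 members and the highest for 17.

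**Figure D4:**
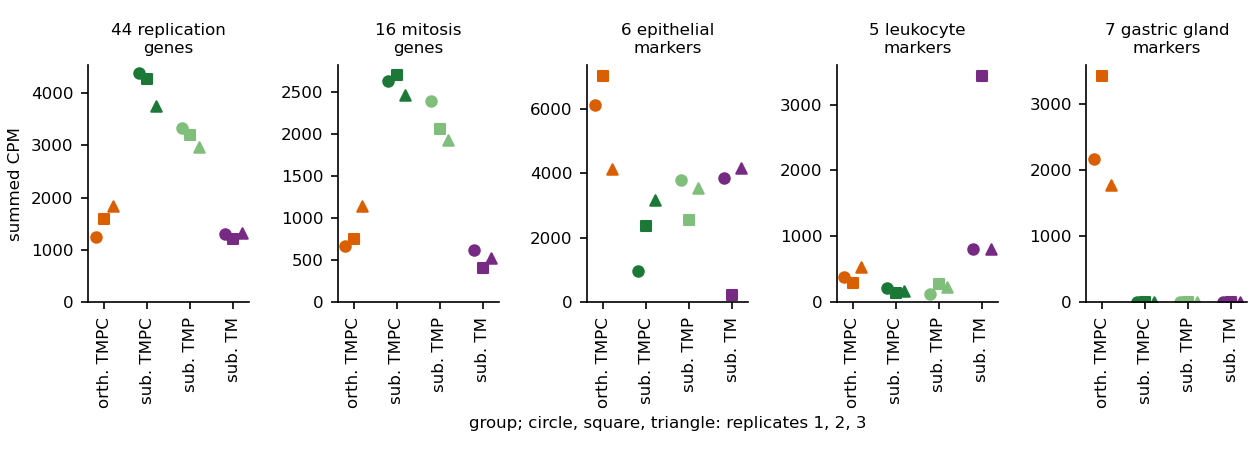
Summed CPM of the 44 replication genes, 16 mitosis genes and 3 lists of cell type markers, with one point per library and a separate linear axis in each panel. The replication sums of subcutaneous TMPC and TMP (2961 to 4370 CPM) lie above those of orthotopic TMPC and TM (1209 to 1839 CPM), while the epithelial sums of these groups overlap.

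Cell type markers moved with some of these differences. For scale, 2051 of all 15277 genes tested were called as lower in TMP against TM and 2721 in TMPC against TM. Between the sites 2118 of all 15123 genes were called as higher. The 5 leukocyte markers summed to between 124 and 270 CPM in TMP and to 803, 3434 and 810 CPM in TM, and all 5 were lower in TMP than in TM past the threshold. The 6 epithelial markers were between 2560 and 3803 CPM in TMP, against 3847, 231 and 4161 CPM in TM, and none of the 6 was called. In orthotopic TMPC the epithelial markers summed to 6125, 7011 and 4115 CPM, against 955, 2364 and 3159 CPM in subcutaneous TMPC, with 3 of 6 called as higher, and the leukocyte markers to between 286 and 533 CPM, against 138 to 210 CPM, with 3 of 5 called as higher. All 7 gastric gland markers were higher in orthotopic TMPC, and 4 or 5 of them had 0 counts in each subcutaneous TMPC library.

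In TMPC against TM, all 5 leukocyte markers were lower past the threshold, at sums of 138 to 210 CPM in TMPC and 803, 3434 and 810 CPM in TM, and none of the 6 epithelial markers was called. The 5 macrophage markers summed to between 244 and 384 CPM in subcutaneous TMPC, between 247 and 448 CPM in TMP, and 1148, 1971 and 1134 CPM in TM, and 4 of the 5 were called as lower in TMP and in TMPC against TM. Between the sites 1 of the 5 was called as higher, at sums of 410 to 909 CPM in orthotopic TMPC. The 5 skeletal muscle markers went the other way. They summed to 7.49, 3.30 and 4.40 CPM in orthotopic TMPC, 21.3, 197 and 121 CPM in subcutaneous TMPC, 10.8, 171 and 2.89 CPM in TMP, and 1.77, 3.31 and 2.57 CPM in TM, where 1 or 2 of them had 0 counts in each library. Of these 5, 1 was called as higher in TMP against TM and 2 in TMPC against TM, and 4 were called as lower in orthotopic against subcutaneous TMPC. TMP replicates 1, 2 and 3, with muscle sums of 10.8, 171 and 2.89 CPM, had summed replication levels of 3320, 3193 and 2961 CPM. All 3 lay above every TM library, and within TMP 27 members were lowest in replicate 3. Of the fibroblast and the endothelial markers, 5 each, 1 and 0 were called as lower in TMP against TM, 1 and 1 in TMPC against TM, and 1 and 1 as higher between the sites. A count of 1 of 5 is near the share of all genes called in that direction. Of the liver, B and plasma cell and T cell markers that entered the site comparison, 2 of 4, 2 of 3 and 0 of 1 were called as higher there. In TMP against TM 1 of 2, 2 of 3 and 1 of 1 of these were called as lower, and in TMPC against TM 1 of 2, 3 of 3 and 1 of 1. No marker was called in TMPC against TMP. The part of these cell types in the replication levels was not tested.

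Other genes of the pathway went the same way in smaller number. Of 34 further replication genes, 22 rose and 0 fell in TMP against TM, with a median of 0.85. Between the sites 21 fell and 0 rose, with a median of -0.82. For this list and those below, the shares over all genes tested were 14.3% called as higher in TMP against TM and 13.8% as lower between the sites. Hells, a chromatin remodeller of the SNF2 family, had 111, 109 and 102 CPM in TMP, against 24.3, 14.9 and 22.8 CPM in TM (2.32 ± 0.19, adjusted p = 0.00128). Top2a, which untangles DNA, rose by 2.02 ± 0.17 (adjusted p = 0.00128). Between the sites Dnmt1, which copies DNA methylation at the fork, fell by 1.82 ± 0.24 (adjusted p = 0.00941) and Rfc1, the large subunit of the clamp loader, by 1.03 ± 0.14 (adjusted p = 0.00976). Of the MCM relatives outside the ring, Mcm8 rose by 1.67 ± 0.19 in TMP against TM (adjusted p = 0.00196), while Mcm9 was at 0.03 ± 0.24 (adjusted p = 0.926).

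Of the 16 S phase cyclins, kinases and regulators, 10 rose in TMP against TM and 10 fell between the sites. Ccna2, the S phase cyclin A2, had 138, 129 and 154 CPM in TMP, against 32.8, 24.5 and 37.1 CPM in TM (2.10 ± 0.18, adjusted p = 0.00128), and the kinase Cdk1 rose by 2.20 ± 0.25 (adjusted p = 0.00196). Cdk4, a kinase of G1, fell by 1.25 ± 0.14 in orthotopic against subcutaneous TMPC (adjusted p = 0.00864) and Cdk1 by 1.39 ± 0.18 (adjusted p = 0.00911). Of 9 replication checkpoint genes 3 rose in TMP against TM and 4 fell between the sites, where 14.3% and 13.8% of all genes were called in those directions. Those that rose included the kinases Chek1 (2.08 ± 0.27, adjusted p = 0.00273) and Wee1 (1.38 ± 0.23, adjusted p = 0.00623). Among those that fell were Chek1 (-1.67 ± 0.33, adjusted p = 0.0170) and Rad1 (-0.97 ± 0.20, adjusted p = 0.0195).

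The list of E2F and pocket protein genes moved both ways. Of its 15 genes 8 rose and 2 fell in TMP against TM. Of all 15277 genes tested there, 2188 were called as higher and 2051 as lower, so that 2 of 15 is near the share of all genes. Lin9, a subunit of the MuvB complex that acts on cell cycle genes, rose by 1.70 ± 0.16 (adjusted p = 0.00133) and Tfdp1, the partner of E2F proteins, by 1.27 ± 0.19 (adjusted p = 0.00409). The 2 that fell, named after their values were seen, were the pocket protein genes Rb1 (-1.49 ± 0.33, adjusted p = 0.0161) and Rbl2 (-1.14 ± 0.20, adjusted p = 0.00727), whose proteins hold E2F targets back. Rb1 had 21.7, 20.6 and 26.0 CPM in TMP, against 44.5, 93.1 and 45.7 CPM in TM, with the highest value in TM replicate 2. Between the sites 8 of the 15 fell, among them E2f3 (-1.60 ± 0.29, adjusted p = 0.0148) and Tfdp1 (-0.95 ± 0.18, adjusted p = 0.0160), and 0 rose.

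All 16 mitosis genes rose in TMP against TM and all 16 fell between the sites, with medians of 2.19 and -1.59. Bub1b, a spindle checkpoint kinase, had 177, 152 and 151 CPM in TMP, against 34.3, 29.4 and 26.5 CPM in TM (2.36 ± 0.21, adjusted p = 0.00128), and Tpx2, a spindle assembly factor, rose by 2.24 ± 0.20 (adjusted p = 0.00128). Cdc20 fell by 1.58 ± 0.15 and Kif11 by 1.97 ± 0.19 between the sites (adjusted p = 0.00738 and 0.00755). The summed level of the 44 replication genes divided by that of the mitosis genes was 1.86, 2.12 and 1.61 in orthotopic TMPC, 1.66, 1.58 and 1.52 in subcutaneous TMPC, 1.39, 1.55 and 1.54 in TMP, and 2.10, 2.96 and 2.49 in TM. The ratio was thus higher in every TM library than in any TMP or subcutaneous TMPC library, and the replication genes differed between those groups by a smaller factor than the mitosis genes.

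**Figure D5:**
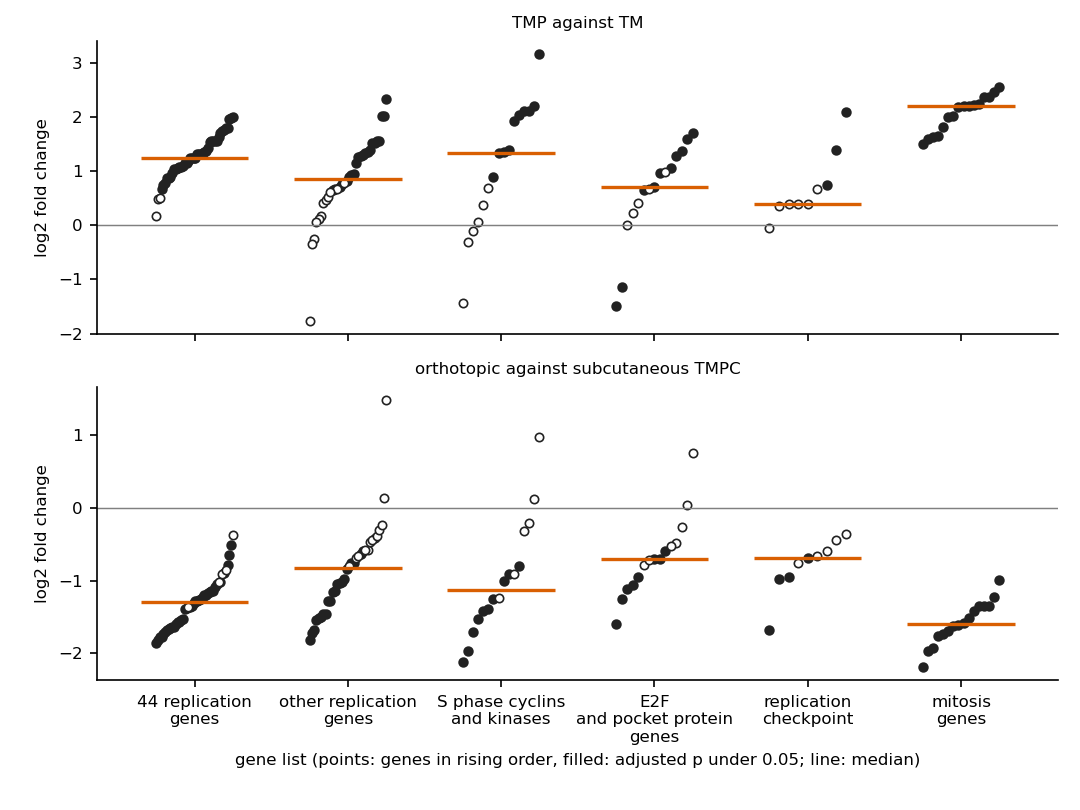
Log2 fold changes, on the y axis, of the 44 replication genes and of 5 other gene lists in TMP against TM and in orthotopic against subcutaneous TMPC, with 1 point per gene and a line at the median. The medians of the 44 are 1.25 and -1.30, and those of the mitosis genes are 2.19 and -1.59.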

How the data were processed

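Groups and replicate numbers came from the sample titles, giving 12 bulk libraries in 4 groups of 3, and the series' 2 single-cell samples were left aside. The submitters' processing notes name STAR 2.6.0, DESeq2 and the mm10 build. How reads were assigned to genes, with which annotation and whether by strand, is not given in the sources used here. The authors deposited whole-number counts per gene in 2 tables, beside normalized counts, a signal that served here only to check the order of entries, per the file headers. In the subcutaneous table symbols and counts no longer stood side by side from entry 12291 on (12131 of 24421 entries), so symbols were taken by position from the second table. Counts then matched the deposited normalized signal times a size factor, within 0.01 reads, for 24419 of 24419 genes, against 14200 as deposited. No pair of libraries of the same group was a duplicate, and pairs from different groups were not compared.

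Counts were tested with edgeR 4.0.16 (R 4.3.3) (glmQLFit, then glmQLFTest) after filterByExpr, with TMM scaling. The 9 subcutaneous libraries were fitted together (6 residual degrees of freedom) and the 6 TMPC libraries of the site comparison alone (4). P-values were adjusted over all genes tested by Benjamini-Hochberg, with a threshold of 0.05, and standard errors are the absolute log2 fold change over the root of F. The steps were tested on simulated data. DESeq2 1.42.0, other scalings, no filter, fits of 2 groups, leaving out each library and a replicate block were alternatives. CPM used TMM factors over the 12 libraries, and levels per kilobase the length of the principal transcript in the mm10 annotation. Promoter windows are from RefSeq (GRCm38.p6).

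Full values are given for the member of each role with the largest change per comparison, and of each other list for the 2 genes with the smallest adjusted p. The members, lists and tests were chosen with earlier results of these data known.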

Additional observations from a re-analysis of the deposited data

How the results depend on the processing

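No log2 fold change of a member changed sign under any alternative in TMP against TM, TMPC against TM or the site comparison, and in TMPC against TMP 2 of 660 values did. Leaving out 1 library at a time gave between 31 and 41 calls in TMP against TM, between 41 and 42 in TMPC against TM, 0 in TMPC against TMP and between 9 and 39 between the sites. In these runs 9.80% to 31.2%, 21.7% to 40.8%, 0% and 2.51% to 30.6% of all genes were called. The 9 calls came without orthotopic TMPC replicate 2 (387 genes called in all), and the cause was not tested. The other settings gave 40 or 41, 40 to 43, 0 and 26 to 42 calls. There 19.0% to 34.5%, 23.8% to 41.1%, 0% to 0.116% and 11.8% to 38.8% of all genes were called. Of the called members, 29 of 41, 40 of 41 and 9 of 39 passed under each alternative run. Gins2 in TMP against TM (adjusted p between 0.0501 and 0.0720 under RLE, library totals, no filter and the replicate block) was the call that ended most often with all libraries kept. DESeq2 also called Rfc2 and Dscc1 as higher in TMPC against TM, and Orc1, Gins1 and Dscc1 as lower between the sites.

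With the replicate number as a block (replicate block) 40, 0, 41 and 26 members were called in TMP against TM, TMPC against TMP, TMPC against TM and between the sites. Of all genes 19.8%, 0%, 28.1% and 11.8% were called with the block, in the same order. Deviations of libraries with the same number correlated between -0.40 and 0.29, and those with different numbers between -0.32 and 0.41. These ranges overlap, and with 3 libraries per group they cannot decide whether libraries of the same number belong together.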

Other observations

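Subcutaneous TM replicate 2, the library with 0 CPM of the 4 Y-linked genes and an epithelial sum of 231 CPM, had a summed replication level of 1209 CPM, against 1308 and 1323 CPM in the other TM libraries. Its members differed one by one: Mcm6, Mcm7, Chaf1b and Clspn were lowest there (47.9, 51.2, 6.97 and 9.59 CPM), and Rfc2, Fen1, Pola2 and Timeless highest (66.2, 43.4, 31.3 and 31.9 CPM).

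Among the further replication genes, Pold4, a small subunit of polymerase delta named after its values were seen, was lower in TMPC than in TM (-2.16 ± 0.59, adjusted p = 0.0245), against the direction of the other calls of its list. It had 1.79, 2.13 and 1.81 CPM in orthotopic TMPC, 0.807, 0.925 and 0.410 CPM in subcutaneous TMPC, 0.421, 1.43 and 0.948 CPM in TMP, and 2.40, 4.48 and 2.30 CPM in TM. In TMP against TM it was at -1.76 ± 0.58 (adjusted p = 0.0545) and between the sites at 1.48 ± 0.46 (adjusted p = 0.0537). Of the S phase regulators, Cdkn1c, an inhibitor of cyclin-dependent kinases likewise named after its values were seen, had 5.62, 13.7 and 12 CPM in orthotopic TMPC, 61.5, 52.8 and 28.3 CPM in subcutaneous TMPC, 89.5, 58.1 and 64.8 CPM in TMP, and 8.91, 4.83 and 9.12 CPM in TM. It was high in the groups in which the replication genes were high, and rose by 3.16 ± 0.37 in TMP against TM (adjusted p = 0.00221).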
